A study of Mus musculus with 12 samples.

Results

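The muscle of mice on a high-fat diet (HFD) was compared with that of mice on chow (Chow) in 6 of the 12 RNA sequencing libraries of the series: HFD 4, 30 and 38 against Chow 8, 17 and 19. These libraries were chosen by their labels as the uninjected mice of both diets, and they share 1 deposited table of 24093 genes, of which 12686 passed the filter on low counts and were tested. Per the labels, all mice were C57BL/6N, began their diet at 6 weeks of age and stayed on it for 18 weeks. Chow mice ate regular chow and HFD mice the high-fat diet, and the sources used here do not give the composition of the diets. The other 6 libraries, HFD mice injected with PCN (pregnenolone carbonitrile, an activator of the pregnane X receptor) at 50 mg/kg for 4 days or with its vehicle, serve here only to show levels side by side. The labels name neither the muscle nor a separate mouse for each library, so p-values measure the spread between these samples, which may be technical. In whole muscle, fewer cells of a type and less RNA per cell cannot be told apart.

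Muscle takes up much of the glucose that insulin clears from the blood, and it shifts between burning glucose and burning fat with the supply of each. The pyruvate dehydrogenase complex is the gate between them: its kinases close it and its phosphatases open it. Muscle mass is set by the balance of synthesis through mTORC1 against breakdown by the proteasome and by autophagy, both under FoxO transcription factors, and it is restrained by myostatin and related ligands of the activin receptors.

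Total counts were 12770308 to 18920359 in Chow and 14266093 to 17096576 in HFD. The fast-fibre list, which marks the labelled tissue, had a mean level of 11.5 to 11.8 log2 CPM (counts scaled to the TMM-normalised library size) in every library, and Ryr1, the calcium release channel of muscle, stood at 3397 CPM or more in each. The slow-fibre list split the Chow group: its mean level was 2.59 log2 CPM in Chow 8, 5.32 in Chow 17 and 5.28 in Chow 19, against 1.57, 2.60 and 2.58 in HFD 4, 30 and 38. A slow-fibre score, which differs from that mean, was 2.26, 5.19 and 5.17 log2 CPM in Chow 8, 17 and 19. It was 0.84, 2.19 and 2.26 in HFD 4, 30 and 38, and it is the slow-fibre level used as a covariate. Lists and genes that move most with this split are given also with the slow-fibre level as a covariate or without Chow 17 and Chow 19. The second setting leaves Chow 8 as the whole Chow group, so its values rest on that library alone. The covariate fit also leans on Chow 8, the Chow library with a slow-fibre level near that of HFD. Long transcripts also read higher in HFD: the median log2 fold change ran from -0.12 in the shortest of 5 equal groups of genes (median exonic length 1.71 kb) to 0.10 in the longest (10.1 kb), and Chow 19 lay with the HFD libraries in that trend. After an adjustment for length the same medians were -0.02 and -0.01.

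At an adjusted p threshold of 0.05, edgeR's quasi-likelihood test called 0 of 12686 genes (0.0%), with 977 (7.7%) at an unadjusted p under 0.05, 480 higher in HFD (3.78%) and 497 lower (3.92%). DESeq2 called 40 of 15218 genes (0.263%), 21 higher and 19 lower, and the authors' deposited table calls 27 of 24093 (0.112%), all 27 among the 40. Of the 39 DESeq2 calls that edgeR tested, all 39 had the same sign in both fits and 38 had groups that did not overlap. Over all genes tested, 1620 (12.8%) had groups that did not overlap, 809 (6.38%) higher in HFD and 811 (6.39%) lower. The fitted fold change was above 0 for 50.1% of genes and below 0 for 49.9%, with a median of 0.00. Leaving out Chow 19 raised edgeR's calls to 219, of which 17 were also DESeq2's, and leaving out Chow 8 gave 7. In what follows, "called" without a tool means DESeq2's adjusted p under 0.05, and every other difference is given as a value. Fold changes are log2, HFD minus Chow, with edgeR's standard error (SE).

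**Figure D1:**
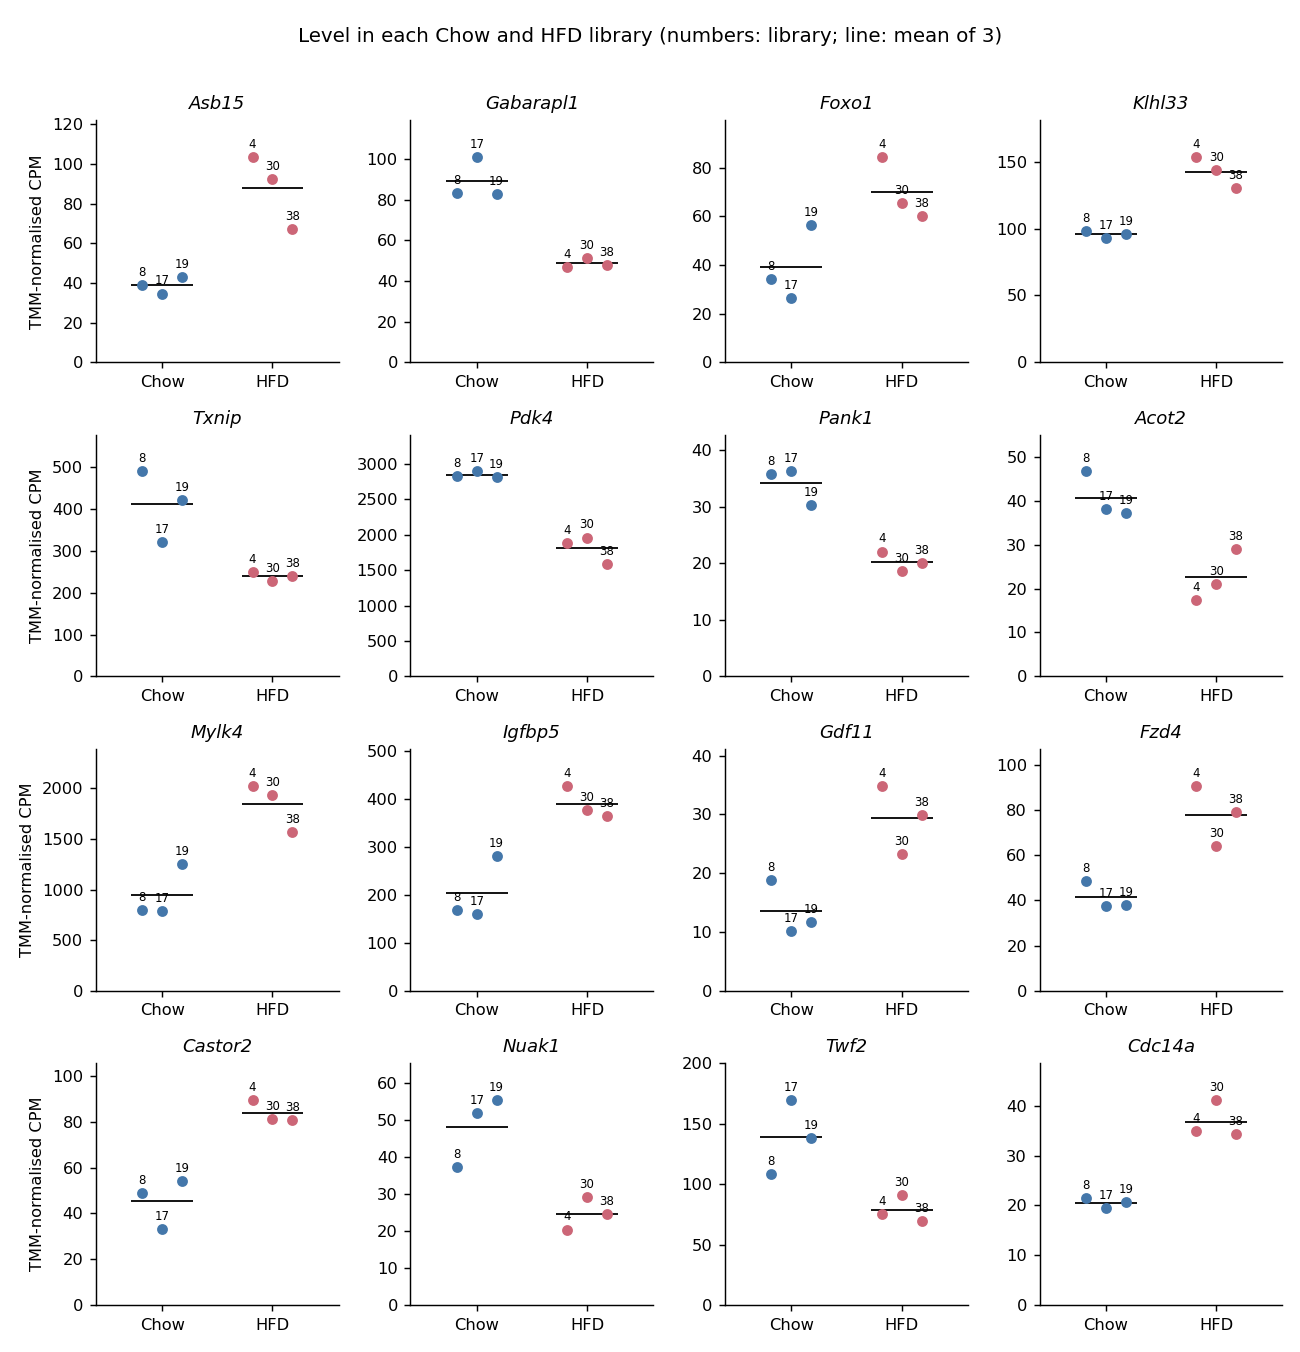
Level of 16 genes in each library, in TMM-normalised CPM on axes that start at 0, with the library number at each point and a line at the mean of 3 libraries. All 16 had Chow and HFD libraries that did not overlap, and Chow 19 was the Chow library nearest to HFD for Asb15, Foxo1, Mylk4, Igfbp5 and Castor2.

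The gene with the lowest p encodes a part of the machinery that marks proteins for breakdown. Asb15, a SOCS-box protein of muscle that serves as a substrate adaptor of a ubiquitin ligase, stood at 38.9, 34.7 and 42.8 CPM in Chow 8, 17 and 19 against 103, 92.5 and 67.1 CPM in HFD 4, 30 and 38. The lowest HFD library was above the highest Chow library, and the fold change was 1.17 ± 0.17 (SE), or 2.26-fold (edgeR adjusted p = 0.241, DESeq2 adjusted p = 1.78e-05). It was 1.03 with the slow-fibre level as a covariate and 1.16 without Chow 17 and Chow 19. Among the 20 tested genes of the ASB adaptor list, 11 were higher and 9 lower, with a median of 0.01 against 0.00 over all genes and -0.20 with the covariate. The other 15 tested ASB genes lay between -0.31 and 0.33, and 1 of them, Asb13, had groups that did not overlap. Asb2, the most abundant of the family per length at 203 CPM per kb in Chow and 209 in HFD, had a fold change of 0.04 ± 0.20 and turned negative under several settings. Asb5 was at -0.22 ± 0.17, Asb11 at -0.18 ± 0.14, Asb14 at -0.10 ± 0.14 and Asb13 at 0.28 ± 0.13. Klhl33, a kelch-repeat protein of a family that serves cullin 3 ligases, was also called higher, at 98.1, 93.3 and 95.8 CPM in Chow against 154, 144 and 131 in HFD (0.58 ± 0.13).

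The best known atrophy ligases differed within the groups more than between them. Fbxo32 (atrogin-1) read 1196, 667 and 696 CPM in Chow against 1306, 872 and 552 in HFD, a fold change of 0.09 ± 0.34. Trim63 (MuRF1) was at 0.07 ± 0.42. Both were highest in Chow 8 and HFD 4, and without Chow 17 and Chow 19 they were at -0.40 and -0.64. Foxo1, which drives both ligases and autophagy genes, was higher in every HFD library, at 84.3, 65.5 and 60.3 CPM against 34.3, 26.5 and 56.5 in Chow (0.84 ± 0.27, edgeR adjusted p = 0.635), and Foxo3 was at 0.29 ± 0.15. In the list of atrophy ligases and FoxO factors 16 of 27 were higher (median 0.07, from -0.06 without Chow 17 to 0.17 without Chow 8). Without overlap, 4 were higher (14.8%) and 3 lower (11.1%), against 6.38% and 6.39% of all genes. Trim55, a sarcomeric relative of Trim63, was at 0.31 ± 0.13. Stub1, a ligase that works with chaperones, was at -0.33 ± 0.12, and Eif4ebp1, the brake on cap-dependent translation, was at -0.47 ± 0.13. Of 34 proteasome genes 23 were lower, with a median of -0.10 that ranged from -0.22 without Chow 19 to -0.02 without Chow 8.

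Autophagy genes parted in direction. Gabarapl1, an ATG8 protein that is coupled to lipid on the growing autophagosome, was at 83.2, 101 and 82.9 CPM in Chow against 46.7, 51.5 and 47.9 in HFD, and it was called lower (-0.87 ± 0.13, DESeq2 adjusted p = 1.72e-04). Its relative Gabarap was at -0.31 ± 0.17, and the other 3 tested ATG8 genes lay between -0.13 and 0.05. In Chow, Gabarapl1 was among the more abundant of the 5 per length, at 44.2 CPM per kb, and in HFD it read 24.2. Ulk1, the kinase that starts autophagy, was at 51.7, 32.1 and 70.3 CPM in Chow against 97.7, 83.2 and 69.3 in HFD, a fold change of 0.70 ± 0.27. Chow 19 was as high as HFD 38. Tecpr2 and Epg5, which act when autophagosomes mature and meet lysosomes, were at 0.44 ± 0.17 and 0.32 ± 0.15, the first without overlap. Over the autophagy and lysosome list, 31 of 49 were higher with a median of 0.05. Without overlap, 5 were higher (10.2%) and 2 lower (4.08%), against 6.38% and 6.39% of all genes.

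**Figure D2:**
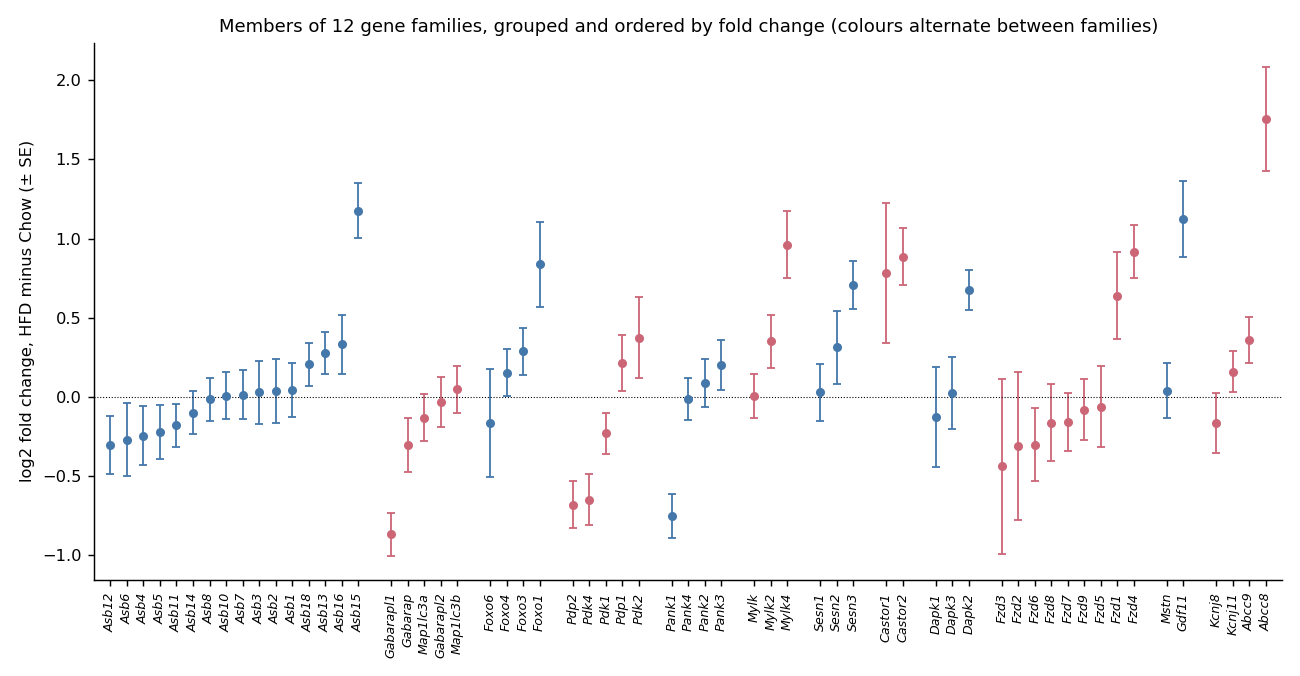
Fold change of each tested member of 12 gene families (y axis, log2, HFD minus Chow, with the SE derived from edgeR's test as the bar), ordered within each family. In the ASB, ATG8, PANK, DAPK and activin ligand groups 1 member lies farthest from 0: Asb15 at 1.17, Gabarapl1 at -0.87, Pank1 at -0.75, Dapk2 at 0.67 and Gdf11 at 1.12.

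Genes around the pyruvate dehydrogenase gate and coenzyme A were among the genes called lower in HFD. Pdk4, the kinase that shuts the pyruvate dehydrogenase complex, read 2833, 2892 and 2813 CPM in Chow against 1887, 1960.0 and 1592 in HFD, and it was called lower (-0.65 ± 0.16, DESeq2 adjusted p = 0.00449). Every HFD library was below every Chow library, and the fold change was -0.68 with the slow-fibre level as a covariate. Pdp2, a phosphatase that opens the same complex, was lower by a similar amount (-0.68 ± 0.15), at 13.6, 16.8 and 15.0 CPM in Chow against 8.38, 10.3 and 9.57 in HFD, but it was not called (DESeq2 adjusted p = 0.164). Pdk2, the other main muscle kinase, was at 0.37 ± 0.25. Pdp1, the more abundant phosphatase per length, was at 0.21 ± 0.18 and Pdk1 at -0.23 ± 0.13, so the members of the cycle differed in direction.

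Txnip encodes an arrestin-like protein that limits glucose uptake. It stood at 490, 320 and 423 CPM in Chow against 250, 229 and 240 in HFD, and it was called lower (-0.78 ± 0.17, DESeq2 adjusted p = 0.00792). Pank1, a kinase that commits pantothenate to coenzyme A, was at 35.8, 36.3 and 30.3 CPM in Chow against 22.1, 18.6 and 20.05 in HFD (-0.75 ± 0.14, called), while Pank2, Pank3 and Pank4 lay between -0.02 and 0.20. Acot2, a mitochondrial thioesterase that frees fatty acids from coenzyme A, was at 46.6, 38.1 and 37.2 CPM in Chow against 17.5, 21.1 and 29.0 in HFD (-0.85 ± 0.19, called). Mlycd, which removes malonyl-CoA, the inhibitor of fatty acid entry into mitochondria, was at -0.38 ± 0.14. Ucp2, an inner membrane carrier, was at 0.61 ± 0.25. In the list of fatty acid use and PPAR targets 25 of 47 were lower (median -0.07, from -0.27 without HFD 38 to 0.11 without Chow 17). Without overlap, 5 were lower (10.6%) and 2 higher (4.26%), against 6.39% and 6.38% of all genes. With the slow-fibre level as a covariate the list's median was 0.22, while Pdk4, Acot2 and Mlycd were at -0.68, -0.90 and -0.36.

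Genes of glucose handling were mostly lower. In that list 27 of 39 were lower, with a median of -0.10 that stayed between -0.14 and -0.08 when each library was left out. Without overlap, 3 were lower (7.69%, near the 6.39% of all genes) and 1 higher (2.56%, against 6.38%). Hk2, which traps glucose as its phosphate, read 547, 326 and 642 CPM in Chow against 344, 350 and 353 in HFD (-0.53 ± 0.22). The HFD libraries were nearly equal, and Chow 17 lay below them. Ugp2, which makes the sugar donor of glycogen, was at -0.38 ± 0.16, and Slc2a4, the insulin-responsive glucose carrier, at 260, 275 and 273 CPM in Chow against 239, 232 and 235 in HFD (-0.19 ± 0.13). Fbp2, the muscle enzyme that runs a step of glycolysis backwards, was higher in every HFD library, at 51.1, 38.9 and 53.9 CPM against 34.0, 31.4 and 31.2 (0.58 ± 0.15). Pfkfb4, which sets the level of the main activator of glycolysis, was at 0.36 ± 0.17. Me1, which makes NADPH for lipid synthesis, was at 95.1, 63.6 and 116 CPM in Chow against 162, 158 and 125 in HFD (0.69 ± 0.21). In the lipogenesis list 13 of 21 were higher (median 0.16, -0.13 without HFD 38). Pnpla3, a lipid droplet hydrolase, was at 1.21 ± 0.51 with HFD 38 highest. It passed the filter on low counts only with its HFD libraries, so its fold change is not read.

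The insulin signalling list had 18 of 29 higher with a median of 0.13. Without overlap, 5 were higher (17.2%) and 1 lower (3.45%), against 6.38% and 6.39% of all genes. Its members are long, with a median exonic length of 8.87 kb, and the median was 0.02 after the length adjustment. Tbc1d1, which holds glucose carriers inside the cell until it is phosphorylated, was at 120, 97.2 and 129 CPM in Chow against 146, 172 and 168 in HFD (0.49 ± 0.15). Deptor, an inhibitor of mTOR, was at 50.3, 42.8 and 79.7 CPM in Chow against 92.1, 82.8 and 88.0 in HFD (0.60 ± 0.21). Inppl1, a phosphatase that lowers the lipid second messenger of insulin, was at 0.36 ± 0.15, and Insr, the receptor, at 0.18 ± 0.17. Castor and sestrin genes act in amino acid sensing upstream of mTORC1. Castor2, a close relative of an arginine sensor, was at 49.0, 33.2 and 54.0 CPM in Chow against 89.6, 81.2 and 80.8 in HFD, and it was called higher (0.89 ± 0.18, DESeq2 adjusted p = 0.0059). Sesn3, a sestrin, was at 15.6, 16.0 and 20.9 CPM in Chow against 26.8, 28.8 and 30.1 in HFD (0.71 ± 0.15), with Sesn2 at 0.31 ± 0.23 and Sesn1 at 0.03 ± 0.18. For both Castor2 and Sesn3 the groups did not overlap, and the fold changes were 0.72 and 0.92 with the slow-fibre level as a covariate.

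Promoter sequences are shown for 4 of the called genes, Asb15 and Mylk4 (higher) and Txnip and Pank1 (lower). They were chosen after the matches were seen, because each holds a match to at least 1 of 5 short motifs linked to factors of muscle metabolism. The motifs, searched on both strands, were GTAAACA (FoxO), CACGTG (the E-box of clock, MondoA and USF factors), CAGCTG (the E-box of myogenic factors), AGGTCA (the core bound by nuclear receptors) and the glucocorticoid response element. None of them overlaps another in these windows. The sequences are the 250 bases before the RefSeq start on GRCm38.p6, read 5′ to 3′ on the gene's strand, with matches in capitals. The windows are chr6:24527894-24528143 (plus strand) for Asb15, chr13:32783965-32784214 (minus) for Mylk4, chr3:96557707-96557956 (plus) for Txnip and chr19:34879456-34879705 (minus) for Pank1, where the first of 2 listed starts was used.
Asb15: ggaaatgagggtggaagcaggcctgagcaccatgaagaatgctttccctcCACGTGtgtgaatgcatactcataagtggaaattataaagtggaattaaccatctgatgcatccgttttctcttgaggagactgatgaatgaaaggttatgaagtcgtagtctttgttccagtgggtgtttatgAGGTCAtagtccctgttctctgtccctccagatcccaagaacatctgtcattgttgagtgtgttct
Mylk4: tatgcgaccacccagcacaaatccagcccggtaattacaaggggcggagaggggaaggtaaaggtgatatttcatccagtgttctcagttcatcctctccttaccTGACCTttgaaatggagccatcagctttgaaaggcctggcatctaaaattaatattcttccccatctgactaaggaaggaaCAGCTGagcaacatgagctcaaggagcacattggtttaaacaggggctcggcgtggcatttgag
Txnip: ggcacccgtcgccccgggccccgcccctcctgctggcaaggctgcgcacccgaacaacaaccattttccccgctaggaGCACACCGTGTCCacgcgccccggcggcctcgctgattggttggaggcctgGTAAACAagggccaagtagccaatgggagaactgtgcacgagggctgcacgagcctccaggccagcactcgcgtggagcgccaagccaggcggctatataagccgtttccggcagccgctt
Pank1: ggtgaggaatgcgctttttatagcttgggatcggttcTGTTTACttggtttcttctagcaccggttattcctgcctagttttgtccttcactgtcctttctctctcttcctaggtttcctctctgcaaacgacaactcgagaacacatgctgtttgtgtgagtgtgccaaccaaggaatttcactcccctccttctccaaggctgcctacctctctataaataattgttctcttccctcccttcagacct
Asb15 holds CACGTG starting 200 bases and AGGTCA starting 66 bases before its start. Mylk4 holds CAGCTG at 64 bases and AGGTCA, on the other strand, from 145 bases. Txnip holds GTAAACA at 121 bases and the glucocorticoid response element at 172 bases, and Pank1 holds GTAAACA on the other strand from 213 bases. Of all 32851 promoters of the same length, 3.17% hold GTAAACA, 6.02% CACGTG, 13% CAGCTG, 14% AGGTCA and 0.387% the glucocorticoid response element. Of the 44 genes named for their lowest p or a call, 38 had an entry, and 15 of these (39.5%) held at least 1 of the 5, against 32.1% of all promoters.

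Of the genes for kinases, a phosphatase and an IGF binding protein given next, Mylk4, Cdc14a and Igfbp5 were called higher. Mylk4, a kinase of the myosin light chain kinase family that muscle expresses strongly, was at 802, 788 and 1249.5 CPM in Chow against 2028, 1936 and 1567 in HFD, and it was called higher (0.96 ± 0.21, DESeq2 adjusted p = 0.00329). Mylk2, the classical kinase of skeletal muscle, was at 0.35 ± 0.17, and Mylk at 0.00 ± 0.14. Dapk2, a calmodulin-dependent kinase, read 15.2, 14.2 and 16.2 CPM in Chow against 23.4, 24.1 and 25.4 in HFD (0.67 ± 0.13, not called, DESeq2 adjusted p = 0.0515). Cdc14a, a phosphatase, was at 21.5, 19.5 and 20.7 CPM in Chow against 34.8, 41.2 and 34.3 in HFD (0.84 ± 0.13, called). Igfbp5, the main IGF binding protein of muscle fibres, was at 168, 160 and 281 CPM in Chow against 428, 376 and 364 in HFD (0.94 ± 0.22, called). For Mylk4, Dapk2, Cdc14a and Igfbp5 every HFD library was above every Chow library.

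Among ligands of the activin receptors, Gdf11 was called higher and its close relative Mstn (myostatin) was not. Gdf11 was at 18.8, 10.1 and 11.7 CPM in Chow against 34.9, 23.2 and 29.8 in HFD (1.12 ± 0.24, DESeq2 adjusted p = 0.00797). Chow 8 was the highest of the Chow libraries, and with the slow-fibre level as a covariate the fold change was 0.50. Mstn was at 59.4, 48.3 and 62.7 CPM in Chow against 64.7, 65.8 and 44.6 in HFD (0.04 ± 0.18). The receptors Acvr1b and Acvr2a were higher in every HFD library (0.72 ± 0.21 and 0.58 ± 0.17). Id3, a target of the BMP branch, was at 0.68 ± 0.24. In the whole list 16 of 24 were higher with a median of 0.14. Without overlap, 5 were higher (20.8%) and 2 lower (8.33%), against 6.38% and 6.39% of all genes. Without Chow 17 and Chow 19 the median was 0.01, and Gdf11, Acvr1b and Acvr2a were at 0.63, 0.38 and 0.49.

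Of the Wnt receptors, Fzd4 was at 48.7, 37.4 and 38.0 CPM in Chow against 90.8, 64.0 and 79.2 in HFD, and it was called higher (0.92 ± 0.17, DESeq2 adjusted p = 0.00296). Of the other 8 tested frizzled genes 7 were below 0. The co-receptor Lrp6 was at 0.35 ± 0.13 and the feedback target Axin2 at 0.53 ± 0.22. In the Wnt and Notch list 16 of 31 were higher with a median of 0.08. Without overlap, 4 were higher (12.9%) and 1 lower (3.23%), against 6.38% and 6.39% of all genes. Itga4, an integrin subunit that binds fibronectin and VCAM1, was at 20.8, 15.4 and 15.4 CPM in Chow against 32.2, 36.7 and 25.7 in HFD (0.88 ± 0.18, called). Mdga1, a membrane glycoprotein with immunoglobulin domains, was at 6.29, 4.42 and 5.57 CPM in Chow against 11.1, 12.5 and 14.5 in HFD (1.23 ± 0.18, called). Fat3, a giant cadherin, was at 2.76, 1.67 and 1.82 CPM in Chow against 5.03, 5.77 and 7.86 in HFD (1.60 ± 0.27, called). For Fzd4, Itga4, Mdga1 and Fat3 the groups did not overlap.

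A group of signalling and cytoskeletal genes was lower in HFD. Nuak1, an AMPK-related kinase, was at 37.3, 51.7 and 55.4 CPM in Chow against 20.4, 29.0 and 24.6 in HFD (-0.97 ± 0.18, called). Twf2, an actin-capping twinfilin, was at 109, 170 and 138 CPM in Chow against 75.4, 90.9 and 69.7 in HFD (-0.82 ± 0.18, called). Tnfrsf12a, the receptor for TWEAK, was at 25.6, 34.8 and 39.6 CPM in Chow against 6.56, 20.3 and 9.68 in HFD (-1.45 ± 0.40, called). Ppp1r27, a regulatory subunit of protein phosphatase 1, was at -0.85 ± 0.19 (called). Inpp4b, a phosphoinositide phosphatase, was at 21.5, 48.5 and 42.4 CPM in Chow against 6.94, 19.2 and 13.7 in HFD (-1.50 ± 0.43, called), Arhgap24, a GTPase-activating protein for Rac, at -1.02 ± 0.26 (called) and Pcp4l1 at -1.28 ± 0.37 (called). Chow 8, whose slow-fibre level was near that of HFD 30 and HFD 38, was above every HFD library for each of these genes but Pcp4l1. Chow 8 was the lowest Chow library for Nuak1, Twf2, Tnfrsf12a, Ppp1r27, Inpp4b, Arhgap24 and Pcp4l1, and with the slow-fibre level as a covariate their fold changes were -0.48, -0.43, -0.80, -0.58, -0.39, -0.24 and -0.12. Whether the split in slow-fibre level accounts for their difference was not tested.

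Of the 19 genes that DESeq2 called lower, 4 are slow-fibre genes themselves, Myh7, Myl2, Myl3 and Tnnt1. Myh7, the slow myosin heavy chain, read 2.30, 183 and 312 CPM in Chow 8, 17 and 19 and 1.98, 1.06 and 2.03 in HFD. Chow 8 was near the level of HFD, and without Chow 17 and Chow 19 the fold change was -0.45. None of these 4 was called in the authors' deposited table. Genes that support oxidative fibres lay on the same side. Perm1, a regulator downstream of PGC-1, was at 147, 222 and 249 CPM in Chow against 90.2, 132 and 143 in HFD (-0.76 ± 0.23), and Fndc5, the precursor of irisin, at 55.9, 107 and 70.7 in Chow against 25.7, 45.9 and 47.2 in HFD (-0.98 ± 0.30). With the slow-fibre level as a covariate they were at -0.09 and -0.26. Prkab2, the AMPK subunit of muscle, was higher at 0.56 ± 0.18. In the list of regulators of exercise response and mitochondrial biogenesis 18 of 25 were lower (median -0.11), and the median was 0.03 without Chow 17 and Chow 19. Without overlap, 5 were lower (20%) and 2 higher (8%), against 6.39% and 6.38% of all genes.

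**Figure D3:**
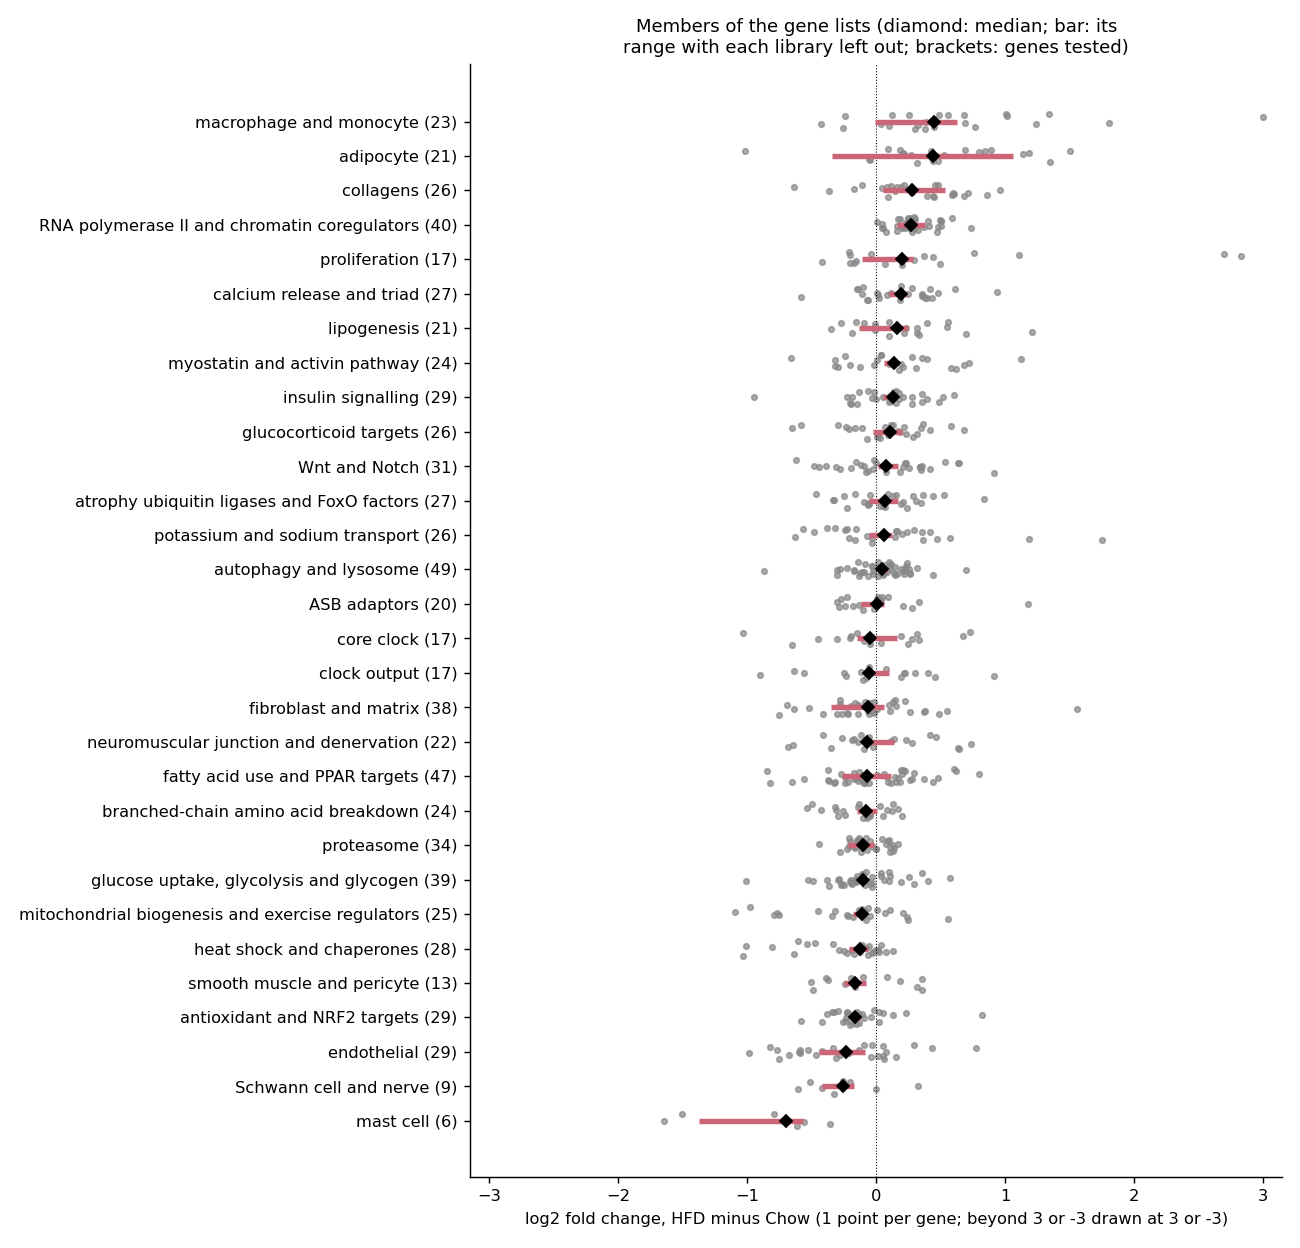
Log2 fold change of every tested member of 30 gene lists (grey points), with the list's median (diamond) and the range of that median when each library is left out (bar). The RNA polymerase II list lies wholly above 0, and the bars of the adipocyte, macrophage and proliferation lists cross 0.

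Genes of excitation and calcium release were mostly higher. In the calcium release and triad list 20 of 27 were higher, with a median of 0.19 that stayed between 0.10 and 0.24 when each library was left out. Of its members 6 (22.2%) had HFD libraries wholly above Chow against 0 below, where all genes had 6.38% above and 6.39% below. Hrc, a calcium-binding protein of the sarcoplasmic reticulum, was at 332, 310 and 452 CPM in Chow against 549, 512 and 465 in HFD (0.48 ± 0.17). Cacna2d1, a subunit of the voltage sensor, was at 442, 360 and 418 CPM in Chow against 595, 563 and 469 in HFD (0.41 ± 0.16). Camk2a, a calcium-activated kinase, was at 0.61 ± 0.25, Ryr3 at 0.93 ± 0.40 and Ryr1 at 0.44 ± 0.28. Ryr3 passed the filter on low counts only with its HFD libraries, so its fold change is not read. The list's median was 0.01 with the slow-fibre level as a covariate and 0.13 without Chow 17 and Chow 19, so its size moved with the treatment of the Chow libraries.

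In the list of potassium and sodium transport 7 of 26 (26.9%) were higher without overlap and 1 lower (3.85%), against 6.38% and 6.39% of all genes. Its members were evenly divided, 13 higher and 13 lower, with a median of 0.06 that ran from -0.06 without Chow 8 to 0.13 without Chow 19 and was 0.24 with the slow-fibre level as a covariate. Abcc8, the sulphonylurea receptor of the ATP-sensitive potassium channel, was low but separate, at 0.92, 0.60 and 1.45 CPM in Chow against 3.28, 3.51 and 3.37 in HFD (1.75 ± 0.33, called). Abcc8 passed the filter on low counts only with its HFD libraries, so its edgeR fold change is not read. Its call comes from DESeq2, which was run without that filter. The receptor that dominates in muscle per length, Abcc9, was at 322, 276 and 301 CPM in Chow against 430, 383 and 338 in HFD (0.36 ± 0.15). The pore subunit Kcnj11 was at 0.16 ± 0.13. Of the inward rectifiers that set the resting potential, Kcnj12 was higher (0.57 ± 0.15) and Kcnj2 lower (-0.57 ± 0.18), both without overlap. At the nerve ending, Chrnb1, a receptor subunit for acetylcholine, was at 0.64 ± 0.17, and Ache, which breaks acetylcholine down, at 0.63 ± 0.19. Hdac4, a repressor linked to denervation, was at 52.7, 41.9 and 65.7 CPM in Chow against 93.5, 96.4 and 76.5 in HFD (0.73 ± 0.18, DESeq2 adjusted p = 0.0659), while Myog, which denervation induces, was at -0.68 ± 0.27. The junction and denervation list as a whole had 9 of 22 higher with a median of -0.07, which was 0.22 with the slow-fibre level as a covariate.

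Clock genes lay on both sides of 0. Per2 was at 6.75, 11.9 and 10.5 CPM in Chow against 13.5, 17.0 and 18.1 in HFD (0.73 ± 0.21), and Per3 at 10.9, 12.01 and 16.3 in Chow against 18.6, 22.9 and 21.3 in HFD (0.67 ± 0.17). Both encode repressors of the loop. Arntl (BMAL1), the activator, was at 37.8, 27.0 and 35.1 CPM in Chow against 24.4, 22.5 and 16.8 in HFD (-0.65 ± 0.18), and Npas2, a partner of BMAL1, at -1.03 ± 0.44 from levels of 1.45 CPM or less. Npas2 passed the filter on low counts only with its Chow libraries, so its fold change is not read. All HFD libraries were above all Chow libraries for Per2 and Per3 and below them for Arntl. None of the 4 was called (lowest DESeq2 adjusted p = 0.25). Wee1 and Tef, which the clock drives, were at 0.91 ± 0.26 and 0.30 ± 0.13, both without overlap, Usp2 was at 0.46 ± 0.21 and Fmo2 at -0.56 ± 0.20. Dbp, also on the clock output list, overlapped at 0.195 ± 0.336. In that list 8 were higher and 9 lower with a median of -0.06. Without overlap, 2 were higher (11.8%) and 0 lower, against 6.38% and 6.39% of all genes. Over the core clock list 8 of 17 were higher. Without overlap, 4 were higher (23.5%) and 1 lower (5.88%), against 6.38% and 6.39% of all genes. The sources used here do not give the hour at which muscle was taken, and its part in these differences was not tested.

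Of the glucocorticoid target list 18 of 26 were higher (median 0.10, -0.03 without HFD 4 and -0.23 with the slow-fibre level as a covariate). Fkbp5, a sensitive target, was at 77.8, 67.7 and 69.6 CPM in Chow against 110, 85.8 and 91.4 in HFD (0.42 ± 0.14). Glul, glutamine synthetase, was at 0.58 ± 0.24 (0.03 with the covariate), and Gpx3, a secreted glutathione peroxidase, at -0.59 ± 0.18. Pdk4, also on that list, was lower as given above, so its members differed in direction.

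Markers of other cells give what the tissue pieces held beside fibres. The endothelial list had 20 of 29 lower with a median of -0.23, and 8 (27.6%) had HFD libraries wholly below Chow against 0 above. Over all genes these shares were 6.39% below and 6.38% above. Kdr, the main VEGF receptor, was at 13.3, 13.5 and 17.6 CPM in Chow against 8.61, 9.68 and 11.1 in HFD (-0.60 ± 0.17). Tek, the angiopoietin receptor, was at -0.47 ± 0.16 and Mmrn1, a lymphatic endothelial gene, at -0.99 ± 0.28. Vegfa, the ligand, which fibres also make, was at 170, 98.5 and 134 CPM in Chow against 66.5, 88.1 and 80.9 in HFD (-0.77 ± 0.20, DESeq2 adjusted p = 0.0696). Of the defining junction genes, Pecam1 was at -0.21 ± 0.16 and Cdh5 at 0.15 ± 0.19. The summed level of the list was 461 to 542 CPM in Chow and 346 to 477 in HFD, with HFD 4 lowest. Its median was -0.02 without Chow 17 and Chow 19 and 0.11 with the slow-fibre level as a covariate, while Vegfa was at -1.12 and -1.02 under the same settings.

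Collagen genes were mostly higher, 22 of 26 with a median of 0.28. Without overlap, 4 were higher (15.4%) and 0 lower, against 6.38% and 6.39% of all genes. The median was 0.05 without HFD 38 and 0.53 without Chow 8. Collagen transcripts are long, with a median exonic length of 8.08 kb against 4.49 kb over all genes tested. Col24a1 was at 4.68, 3.76 and 3.32 CPM in Chow against 10.1, 7.29 and 5.45 in HFD (0.96 ± 0.25), Col22a1, a collagen of the muscle and tendon junction, at 0.68 ± 0.20, Col11a1 at 0.86 ± 0.34 and Col1a1, the main fibrillar collagen, at 48.0, 32.3 and 46.1 in Chow against 51.1, 51.5 and 89.4 in HFD (0.61 ± 0.25). In the fibroblast and matrix list 25 of 38 were lower, with a median of -0.07 that ran from -0.35 without HFD 38 to 0.06 without HFD 4. Dcn, the proteoglycan decorin, was at -0.52 ± 0.27 and Igfbp6 at -0.69 ± 0.25, while Postn, a matrix protein of remodelling tissue, was at 5.06, 4.78 and 4.45 CPM in Chow against 4.34, 12.4 and 24.9 in HFD (1.56 ± 0.59). The summed level of that list was 2048 to 2700.0 CPM in Chow and 1715 to 2873 in HFD.

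Of the 28 macrophage genes 23 passed the filter on low counts, and a gene that passed through its HFD libraries alone had to read higher there, so their counts and median are not read. That median was 0.45, and it was -0.01 without HFD 38 and 0.09 without Chow 17 and Chow 19. Itgad, an integrin of resident macrophages, had 0 counts in the 3 Chow libraries and 78 in the 3 HFD libraries. It was at 1.07, 0.93 and 2.67 CPM in HFD 4, 30 and 38. Itgad passed the filter through its HFD libraries alone, so the size of its difference is not read. DESeq2, which was run without that filter, called it (adjusted p = 4.17e-04). Cd84, a receptor of leukocytes, was at 1.07, 0.60 and 0.27 CPM in Chow against 1.37, 1.99 and 3.10 in HFD (1.80 ± 0.49). Cd84 also passed the filter only with its HFD libraries, so the size of its difference is not read. Mpeg1, a pore-forming protein of macrophages, was at 1.24 ± 0.41 and Laptm5, a lysosomal protein of leukocytes, at 0.68 ± 0.25. Adgre1, which defines mouse macrophages, overlapped at 2.15, 2.87 and 1.07 CPM in Chow against 2.82, 1.39 and 5.40 in HFD (0.69 ± 0.51). The other defining genes Cd68, Csf1r, Lyz2, Mrc1 and C1qa also overlapped and lay between 0.12 and 0.45. Lyve1, Cd163 and Cd14 were lower, at -0.43 ± 0.29, -0.24 ± 0.43 and -0.26 ± 0.44, with groups that overlapped. The summed level was 82.2 to 141 CPM in Chow and 89.5 to 222 in HFD, with HFD 38 highest, and 4 of the 28 genes had 0 counts in at least 1 library.

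Of the 7 mast cell genes 6 passed the filter, and one that passed through its Chow libraries alone had to read lower in HFD, so their direction is not read. The proteases Mcpt4 and Cma1 were at -1.51 ± 0.50 and -1.65 ± 0.58, from levels of 2.27 CPM or less. C7, a complement component made by fibroblasts and other stromal cells, was at 11.0, 11.9 and 8.20 CPM in Chow against 4.73, 3.18 and 5.13 in HFD and was called lower (-1.25 ± 0.23). The adipocyte list had 18 of 21 higher (median 0.44), and its median ran from -0.34 without HFD 38 to 1.06 without Chow 8. It had 0 genes without overlap, against 6.38% of all genes higher and 6.39% lower. Its summed level was 963 to 1210 CPM in Chow and 596 to 1660 in HFD. Car3 alone gave most of that sum, at 831, 676 and 942 CPM in Chow and 460, 874.5 and 1019 in HFD. Adipoq differed widely within both groups, at 33.2, 15.95 and 0.86 CPM in Chow and 10.5, 13.2 and 46.7 in HFD (0.53 ± 1.26). Of the T and NK cell list 0 of 18 genes passed the filter, and of the neutrophil list 1 of 13. The smooth muscle and pericyte list had a median of -0.17 (8 of 13 lower) and the Schwann cell and nerve list -0.26 (8 of 9 lower). With the slow-fibre level as a covariate these medians were 0.16 and 0.13.

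Some markers of dividing cells read higher from low levels, while several genes of DNA replication read lower. Mki67 was at 0.38, 0.48 and 0.75 CPM in Chow against 1.91, 3.58 and 5.24 in HFD (2.70 ± 0.44, called). Top2a, the topoisomerase of dividing cells, was at 0.46, 0.12 and 0.11 CPM in Chow against 1.22, 1.39 and 1.98 in HFD (2.82 ± 0.55, called). Anln (0.76 ± 0.28) and Tpx2 (0.50 ± 0.20), of the contractile ring and the spindle, were also higher without overlap. Of the replication genes, Mcm2 (-0.20 ± 0.16) and Pcna (-0.17 ± 0.15) were lower without overlap. Mcm3, Mcm4, Mcm6, Mcm7 and Rrm1 lay between -0.42 and -0.04, with groups that overlapped. Only 17 of the 40 genes of the proliferation list passed the filter, and a gene that passed through its HFD libraries alone had to be higher there, so their count is not read. Mki67 and Top2a, at 0.75 CPM or less in Chow, passed only with their HFD libraries, so their edgeR fold changes are not read. Their calls come from DESeq2, which was run without that filter. HFD 38 was highest for Mki67, Top2a, Cd84, Mpeg1, Postn and Col1a1, and its part in these differences was not tested.

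The list of RNA polymerase II and chromatin coregulators was higher in 40 of 40 genes, with a median of 0.27. Of these, 5 were higher without overlap (12.5%, against 6.38% of all genes). Kmt2c, a histone methyltransferase, was at 104, 93.9 and 155 CPM in Chow against 190, 172 and 138 in HFD (0.50 ± 0.20). Setd5 (0.29 ± 0.14) and Ankrd12 (0.26 ± 0.12) were higher without overlap, and Chd6, a remodeller, was at 0.32 ± 0.15. These are long transcripts, with a median exonic length of 13.9 kb against 4.49 kb over all genes tested. Their median was 0.16 after the length adjustment and ran from 0.16 without Chow 17 to 0.38 without Chow 19, and the cause was not tested.

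**Figure D4:**
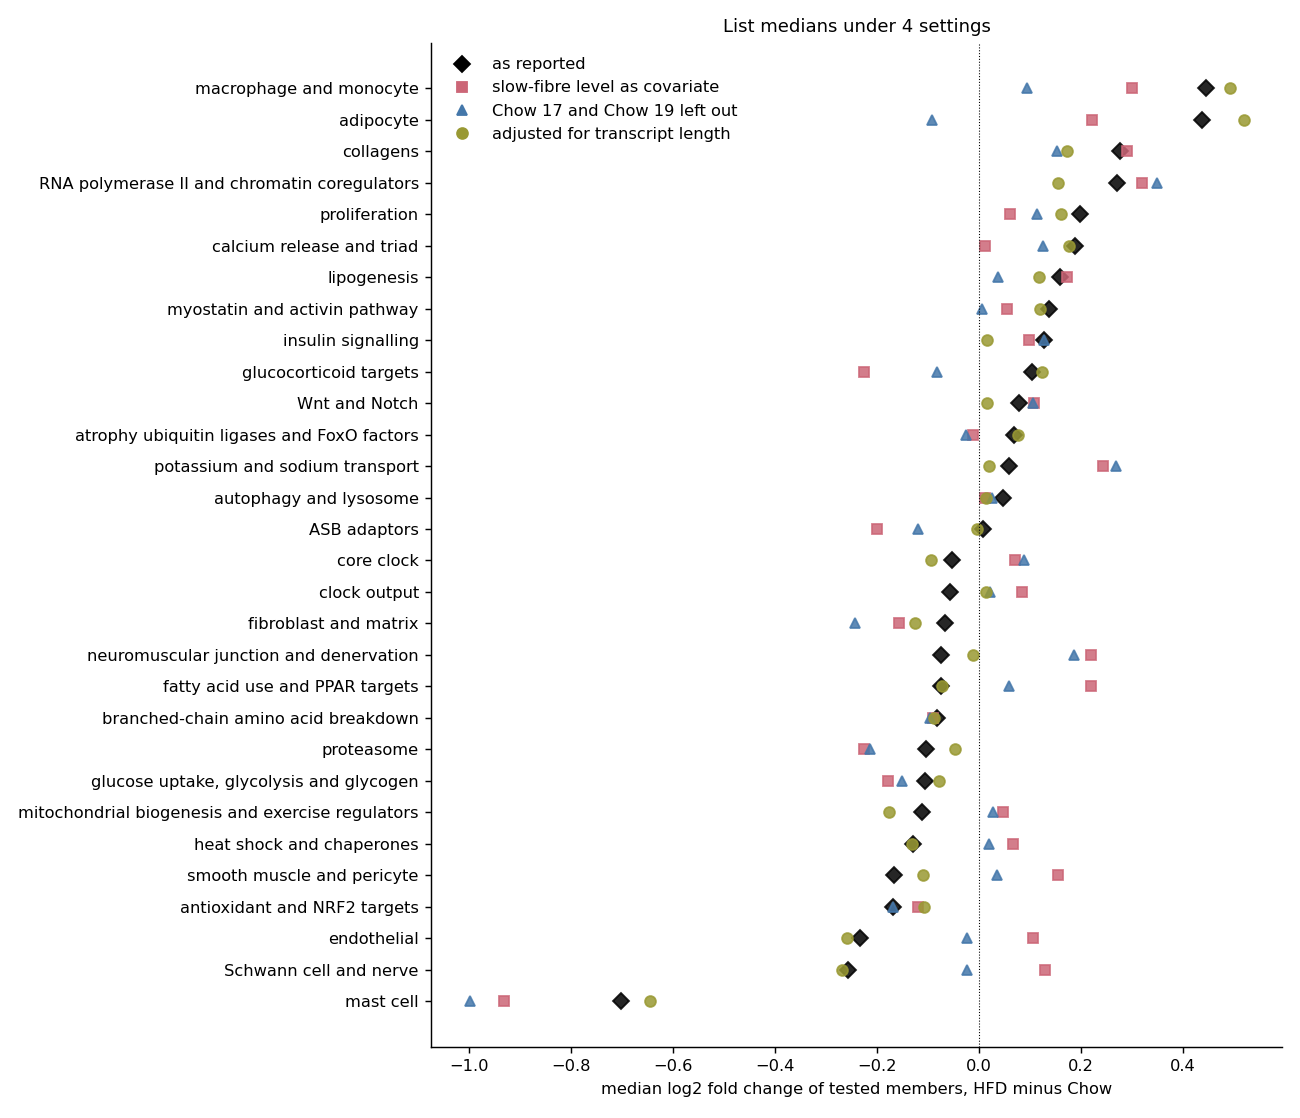
Median log2 fold change of the tested members of 30 lists (x axis) as reported, with the slow-fibre level as a covariate, without Chow 17 and Chow 19, and adjusted for transcript length. The endothelial median moves from -0.23 to 0.11 with the covariate, and the RNA polymerase II median stays above 0 under all 4 settings.

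The remaining genes with a low p or a call have more scattered roles. Higher in every HFD library were Stxbp4, which takes part in the traffic of glucose carriers (10.5, 9.08 and 10.6 CPM in Chow, 17.9, 17.0 and 16.3 in HFD, 0.76 ± 0.13, called), and Cep85l, a centrosomal protein (111, 135 and 125 CPM in Chow, 237, 212 and 199 in HFD, 0.80 ± 0.14, called). Gramd1b, which moves cholesterol from the plasma membrane to the endoplasmic reticulum, was at 0.73 ± 0.14, Gpr155, a lysosomal cholesterol sensor, at 0.70 ± 0.15, Fam214a at 0.58 ± 0.12 and Fam78a at 1.01 ± 0.22, none of them called. Lower in every HFD library were Slc15a5, a transporter of the peptide carrier family (-2.82 ± 0.57, called), and Lrrc52, a potassium channel subunit (-2.43 ± 0.52, called), both at 5.02 CPM or less and at -1.90 and -1.02 with the slow-fibre level as a covariate. Slc15a5 and Lrrc52 passed the filter on low counts only with their Chow libraries, so their edgeR fold changes are not read. Their calls come from DESeq2, which was run without that filter. Reln (-0.95 ± 0.19), a secreted glycoprotein of lymphatic vessels and neurons, Fam110b (-1.23 ± 0.26) and Itgb4 (-1.11 ± 0.24), a laminin-binding integrin, were lower and not called. For these 11 genes the groups did not overlap.

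The same genes were read in the 6 injected HFD libraries, on 1 scale of 12 libraries over the genes that both deposited tables hold. No contrast with Chow was tested there, since it would share the Chow libraries. Pdk4 was 2973 to 3105 CPM in Chow, 1660 to 2068 in HFD and 1027 to 1575 in the injected libraries, all 6 of which were below every HFD library. Per3 was 11.6 to 17.3 CPM in Chow, 19.7 to 24.1 in HFD and 22.9 to 31.5 in the injected libraries. Stxbp4 was 9.75 to 11.2 CPM in Chow, 17.0 to 19.0 in HFD and 13.7 to 28.3 in the injected libraries. For these 3 genes the injected HFD libraries lay on the HFD side of the Chow range.

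Other genes read differently in the injected HFD libraries. Txnip was 242 to 265 CPM in HFD but 418 to 514 in the injected libraries, within the 344 to 520 of Chow. Mki67 was 2.02 to 5.46 CPM in HFD and 0.37 to 1.40 in the injected libraries. Mylk4 was 1634 to 2150 CPM in HFD and 568 to 1530 in the injected libraries, where Chow had 846 to 1320. Asb15 was 69.9 to 110 CPM in HFD and 25.0 to 44.6 in PCN, and Vehicle 55 alone, at 90.5, was within the HFD range. Gdf11 was 24.5 to 37.0 CPM in HFD, and in the injected libraries 11.6 to 35.6 with vehicle and 4.20 to 14.4 with PCN. These genes thus did not separate HFD from Chow in every library on the high-fat diet, and the part of injection, vehicle and library was not tested.

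**Figure D5:**
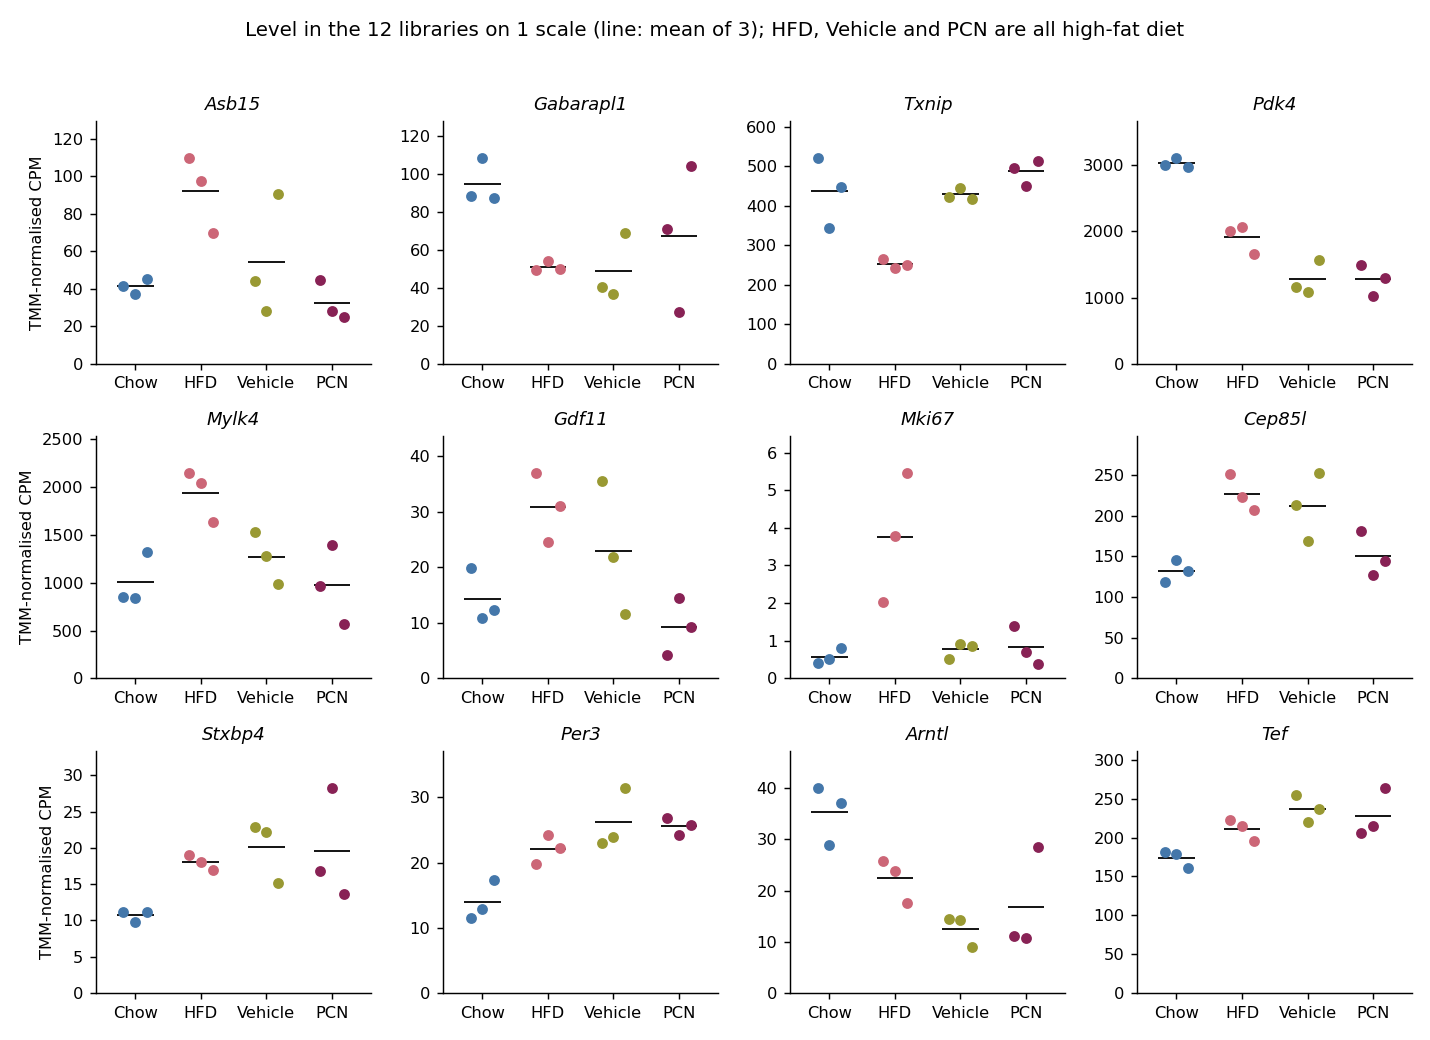
Level of 12 genes in the 12 libraries in CPM on 1 TMM scale, with axes that start at 0 and a line at the mean of 3 libraries. HFD, Vehicle and PCN mice were all on the high-fat diet. Pdk4, Per3, Stxbp4 and Tef keep to the HFD side of Chow in the injected libraries, and Txnip, Mki67 and Mylk4 do not.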

How the data were processed

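Total RNA of skeletal muscle pieces was sequenced on libraries made by standard Illumina protocols, per the labels. The authors deposited raw counts per gene for each library, whole numbers that were not normalised, beside their own comparison, whose columns of other values (base mean, log2 fold change and adjusted p) were used only as the authors' deposited table. The submitters' processing notes name HISAT2, HTSeq, DESeq2, GRCm38 and mm10. The sources used here give neither the strand setting nor the annotation release, so a gene's reads cannot be told apart from those of an antisense or overlapping partner.

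Counts were filtered with filterByExpr (minimum count 10), scaled by TMM and tested with edgeR 4.0.16 (limma 3.58.1, R 4.3.3) by the quasi-likelihood test with robust dispersion and Benjamini-Hochberg adjustment over all genes tested. DESeq2 1.42.0 was the alternative. The procedure was tested on simulated data with known fold changes. Replicates of a group differed by more than counting noise (chi-square per gene 21.9 to 85.5), so each was counted once. The genes named were the 30 of lowest p and all called genes that have a name and average 1 CPM or more, up to 4 members of lowest p and the defining members of each list described, and paralogs. Itgad was named as a macrophage list member and Top2a as a proliferation list member. Further members of the adipocyte, macrophage and proliferation lists are given to show their spread and are not counted among the named genes. Gene models without an assigned name were counted only. The members and lists were chosen with earlier results of these data known. The length adjustment is an offset fitted by loess to exonic length. Promoter sequences were taken from RefSeq (GRCm38.p6).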

Additional observations from a re-analysis of the deposited data

How the results depend on the processing

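No paired analysis was possible because each library carries a number of its own and no number is shared between the diets. With 3 libraries a group, the split of the Chow libraries in slow-fibre level and the length trend limit what can be read. DESeq2 called 40 genes and edgeR with no filter on low counts 237, and leaving out 1 library gave 0 to 219 (219 without Chow 19, 7 without Chow 8, 0 without any other). Of 134 named genes 130 kept their sign under all 16 alternatives. With the slow-fibre level as a covariate and without Chow 17 and Chow 19, in that order, the 4 others were at -0.76 and -0.40 (Fbxo32), -1.001 and -0.64 (Trim63), -0.11 and -0.032 (Mstn) and -0.44 and -0.28 (Asb2). Leaving out 1 library at a time they ranged from -0.26 to 0.42, -0.28 to 0.61, -0.068 to 0.20 and -0.12 to 0.23. Of 30 list medians 10 stayed within 1 SD under all alternatives. With the covariate the medians were -0.20 (ASB adaptors), -0.23 (glucocorticoid targets), 0.22 (fatty acid use), -0.18 (glucose), 0.22 (neuromuscular junction), 0.012 (triad), 0.061 (proliferation), 0.11 (endothelial), 0.16 (smooth muscle), 0.13 (Schwann cell), 0.048 (mitochondrial biogenesis) and 0.24 (potassium and sodium transport). Without Chow 17 and Chow 19 they were -0.12 (ASB adaptors), -0.15 (glucose), 0.0064 (myostatin), 0.19 (neuromuscular junction), -0.024 (endothelial), 0.037 (smooth muscle), -0.022 (Schwann cell), 0.028 (mitochondrial biogenesis) and 0.27 (potassium and sodium transport). A filter of 1 CPM in 3 libraries put the Wnt and Notch median at 0.19. With 1 library left out the medians ranged from 0.016 to 0.091 (autophagy), -0.12 to 0.058 (ASB adaptors), -0.15 to 0.16 (core clock), -0.067 to 0.097 (clock output), -0.13 to 0.24 (lipogenesis), -0.14 to -0.085 (glucose), -0.11 to 0.14 (neuromuscular junction), -0.013 to 0.62 (macrophage), -1.37 to -0.56 (mast cell), -0.11 to 0.29 (proliferation) and -0.44 to -0.090 (endothelial). The cause of these shifts was not tested.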

Other observations

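Most members of the first 3 lists given here were lower in HFD. In the list of antioxidant genes and NRF2 targets 23 of 29 were lower with a median of -0.17, which stayed between -0.20 and -0.12 when each library was left out, and 2 were lower without overlap (6.9%, against 6.39% of all genes). Of 28 tested heat shock and chaperone genes 23 were lower with a median of -0.13, which was 0.07 with the slow-fibre level as a covariate and 0.02 without Chow 17 and Chow 19. Of 24 tested genes of branched-chain amino acid breakdown 17 were lower with a median of -0.08, which ran from -0.15 without Chow 19 to 0.00 without Chow 17. Of the unfolded protein response genes 13 were higher and 16 lower, with a median of -0.01. Of these 29 genes, 3 were higher and 2 lower without overlap, against 6.38% and 6.39% of all genes. In none of these lists was a gene called by edgeR or DESeq2.

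In the injected HFD libraries, on the scale of 12 libraries, Arntl was 8.89 to 28.4 CPM against 29.0 to 40.1 in Chow, and Cep85l was 127 to 253 against 118 to 145. Gabarapl1 was spread widely there, from 27.2 to 104 CPM, with 87.6 to 108 in Chow and 49.5 to 54.3 in HFD.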
